A study of Marchantia polymorpha and Arabidopsis thaliana with 54 samples.

Results

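The genes described here are 59 genes of Arabidopsis thaliana whose transcripts were lower after 1 hour of heat in the wild type Col-0 and were not lower in the heated mutant labelled eTK. They were selected on the read counts themselves, from the heat and control libraries of replicates 1 to 3. Counts were scaled to library size as CPM, with trimmed-mean (TMM) factors, and a heat change was taken as log2 of (mean CPM in heat + 0.5) over (mean CPM in control + 0.5). Nuclear genes with a heat change of -1.5 or less in Col-0 and of -0.3 or more in eTK were kept, which gave 59 of the 22548 nuclear genes that passed a filter on low counts (0.262%). The heat change in either line and its difference between the lines therefore chose the genes, and they are given below as description without a test.

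All plants were whole seedlings 7 days old, grown in continuous light on sucrose medium at 22°C. Col-0 is the standard laboratory accession, and the labels describe the mutant as a triple knockout in class A1 heat shock factors (hsfa1a, hsfa1b, hsfa1d), with no promoter or transgene named. The 4 groups are Col-0 control and eTK control, each with 6 libraries (replicates 1 to 3 in batch 1 and 4 to 6 in batch 2, as labelled), and Col-0 heat and eTK heat (37°C for 1 hour), each with 3 libraries of batch 1. Control libraries 4 to 6 entered the choice of genes only through the scaling and the filter, and the test reported below is the comparison of the lines in these 6 libraries.

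Class A1 heat shock factors are the transcription factors that start the heat response of plants. They bind short repeats of the letters GAA and TTC in both orientations, known as heat shock elements, and turn on genes for chaperones. Many transcripts of growth are known to fall during acute heat while chaperone transcripts accumulate. Of the genes named in the label, 2 had less transcript in the mutant. HSFA1B (annotated HSF3) had 10.7 ± 0.558 CPM in Col-0 control and 1.40 ± 0.189 in eTK control of batch 2 (mean ± SD, n = 3 each), and HSFA1D had 15.0 ± 0.487 and 5.62 ± 0.819. HSFA1A (annotated HSF1) went against the label, with 5.74 ± 1.04 CPM in Col-0 and 11.3 ± 1.79 in eTK, so gene-level counts do not check that allele, and eTK below means the libraries labelled so.

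The 18 libraries held between 58370609 and 110875442 counts. The labelled tissue matched its markers: the Rubisco small subunit gene RBCS1A lay between 7828 and 12545 CPM over the group means, and all 6 root and all 4 stomatal marker genes looked up were detected. Marker sums moved with line and treatment. The 4 shoot markers summed to 15961–18325 CPM in Col-0 control of batch 1 and 11158–15026 in Col-0 heat, against 18165–19043 and 9082–10340 in eTK. The 6 root markers summed to 138–153 CPM in Col-0 control of batch 1 and to 65.8–85.0 in Col-0 heat, against 144–156 and 112–127 in eTK, and 4 of 6 were lower in heat in each line. The 4 stomatal markers summed to 43.6–47.4 and 19.8–20.9 CPM in Col-0 and to 48.1–49.9 and 44.6–47.8 in eTK, with 4 of 4 lower in Col-0 heat and 2 of 4 in eTK heat. Single markers did not all follow these sums: SPCH, EPF2 and EXPA7 had higher means in Col-0 heat than in eTK heat, whereas FAMA had 7.00 CPM in Col-0 heat and 34.6 in eTK heat. The 4 seed and embryo markers summed to at most 1.66 CPM in any Col-0 control library, to 0.185–62.8 in Col-0 heat and to 0.944–21.8 across eTK control. No defining marker of shoot, root or stomata was at 0. In RNA from whole seedlings, fewer cells of a type and less RNA per cell cannot be told apart, and the part of these markers in the results was not tested.

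Some libraries were often the lowest or highest of their group for the genes described here. Among the 24 genes lower in eTK control (defined below), Col-0 control 1 was the lowest of its batch in 19, Col-0 control 6 the lowest of its batch in 17, and Col-0 heat 3 the highest heat library in 20. Among the 29 genes not called these numbers were 8, 19 and 9. The shares over all genes tested were not computed, so these numbers are not read as particular to the 59 genes. The number of genes that met the rule was 71 without Col-0 control 1 and 86 without Col-0 heat 3, and the number of the 59 called in control of batch 2 was 32 without Col-0 control 6.

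The DNA just upstream of the genes is shown here for 4 of them, as examples of genes described below. CYP82C2 was almost silent in eTK at either temperature, and LECRKA4.2 was lower in eTK control and high in eTK heat. GDU3 and CO reached higher levels in eTK heat than in any control. Each run is the 250 bases before the annotated gene start, read 5′ to 3′ on the gene's strand from the RefSeq genome of assembly TAIR10.1. Capitals mark the heat shock element core GAANNTTC and the W-box TTGACC. On the other strand the W-box reads GGTCAA. The windows are chr4:15462100-15462349 on the plus strand for CYP82C2, and on the minus strand chr5:216774-217023 for LECRKA4.2, chr5:23367064-23367313 for GDU3 and chr5:5173086-5173335 for CO.
CYP82C2: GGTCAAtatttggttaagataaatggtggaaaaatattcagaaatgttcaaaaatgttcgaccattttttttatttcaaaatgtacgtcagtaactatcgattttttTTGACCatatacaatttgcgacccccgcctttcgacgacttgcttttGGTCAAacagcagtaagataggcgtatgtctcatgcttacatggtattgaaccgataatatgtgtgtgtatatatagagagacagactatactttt
LECRKA4.2: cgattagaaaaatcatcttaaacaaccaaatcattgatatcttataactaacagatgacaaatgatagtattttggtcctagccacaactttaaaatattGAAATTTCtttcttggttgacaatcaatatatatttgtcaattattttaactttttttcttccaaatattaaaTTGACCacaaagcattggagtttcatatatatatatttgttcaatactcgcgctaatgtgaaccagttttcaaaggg
GDU3: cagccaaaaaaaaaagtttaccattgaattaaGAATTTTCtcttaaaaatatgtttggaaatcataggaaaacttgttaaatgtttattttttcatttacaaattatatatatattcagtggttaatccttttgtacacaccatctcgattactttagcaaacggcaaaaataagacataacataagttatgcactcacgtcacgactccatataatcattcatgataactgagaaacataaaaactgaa
CO: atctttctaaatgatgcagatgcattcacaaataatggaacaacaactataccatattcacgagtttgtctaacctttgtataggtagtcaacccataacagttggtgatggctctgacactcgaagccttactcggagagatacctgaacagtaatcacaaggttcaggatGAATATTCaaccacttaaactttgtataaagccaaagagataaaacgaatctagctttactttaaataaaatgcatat

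The W-box is the element bound by WRKY factors of the defence response. CYP82C2 held it in its window in both orientations and held no GAANNTTC, GDU3 and CO held GAANNTTC and no TTGACC, and LECRKA4.2 held both. Genes with similar levels did not share these motifs. ATL5, PER4 and AT5G15843, also raised in eTK heat, held neither, and AT1G14550 held TTGACC alone. Of the genes nearly silent in eTK, AT1G26390 and AT4G01740 held neither and AT1G26410 held both. Searched on both strands in the same windows of all 59 genes, GAANNTTC was found in 12 (20.3%), against 9.55% of 22547 nuclear genes with a window. The other phase of the element, TTCNNGAA, was found in 5.08% against 7.61%. TTGACC was found in 11 of 59 (18.6%) against 12.2%, and 5 of the 59 (8.47%) held both GAANNTTC and TTGACC against 1.12% of all, with no overlap between them. A TATA box, TATAAA, was found in 45.8% of the 59 genes against 46.3% of all, while the site II element TGGGCC was found in 3.39% against 15.3%. These are counts of letters in a fixed window and name no binding site.

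Heat changes of the 59 genes in Col-0 ran from -3.02 to -1.51 on the log2 scale above, with a median of -1.71, and in eTK from -0.30 to 1.48 with a median of -0.03, beside medians of -0.02 and -0.01 over all nuclear genes. In 52 of 59 genes all 3 Col-0 heat libraries lay below all 3 controls of batch 1, as they did for 33.2% of all genes tested, and in 55 they lay below all 3 controls of batch 2, again against 33.2%. In eTK, 13 of 59 genes had all heat libraries above all controls of batch 1 (32.8% of all genes) 9 had them below (33.9%), and 37 overlapped. Against the eTK controls of batch 2, 13 were above (30.7%) and 15 below (31.7%). The rule drew on these libraries, and nothing is read from the counts. The number of genes that meet the rule was 34 with an added 1 CPM in place of 0.5, 152 with 0.1, and 232 with library sizes in place of TMM factors. Just inside the Col-0 threshold lay AT2G40130 and AT2G20835 with -1.51 each, and just outside AT5G28919 and AT5G28920 with -1.49 each. At the eTK threshold AT3G46280 (-0.30) and MAKR3 (-0.29) were the last inside, and AT3G57580 (-0.32) and NAC083 (-0.33) the first outside.

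**Figure D1:**
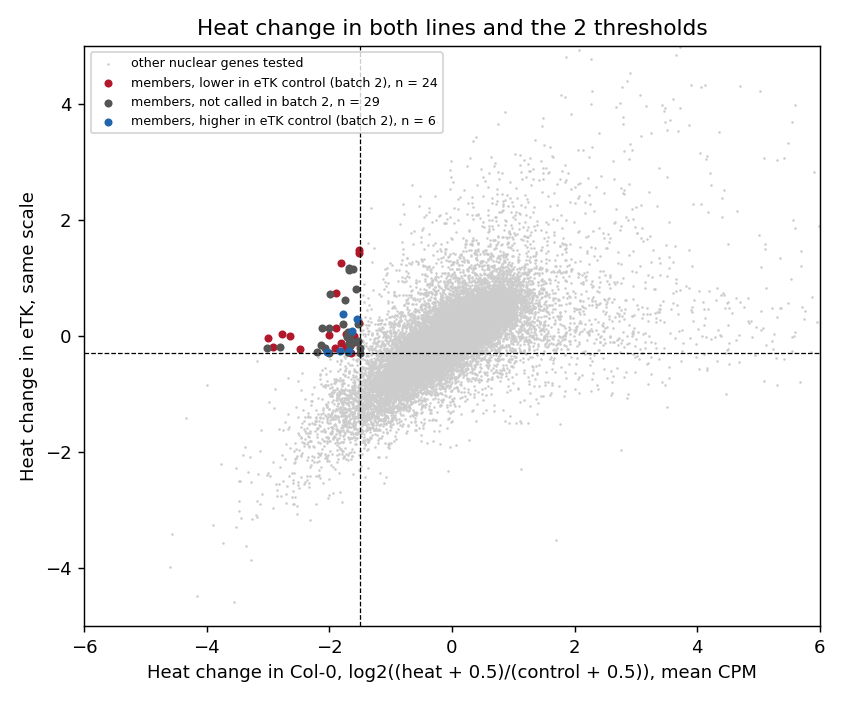
Heat change in Col-0 (x axis) against heat change in eTK (y axis), both as log2 of mean CPM + 0.5 in heat over control of batch 1, for all nuclear genes tested (grey) and the 59 selected genes, coloured by the test in control of batch 2. Dashed lines are the thresholds of -1.5 and -0.3, and the selected genes fill the upper left corner beyond both.

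Without heat, many of the same genes already differed between the lines. In control of batch 2, 30 of the 59 genes (50.8%) were called different between eTK and Col-0 at an adjusted p below 0.05 by edgeR's quasi-likelihood test with Benjamini-Hochberg adjustment over 22696 genes, against 20.8% of all genes tested. Of these, 24 (40.7%) were lower in eTK, against 12.2% of all genes, and 6 (10.2%) were higher, against 8.6%. A difference of 2-fold or more was found for 20 lower genes (33.9%, against 5.55%) and for 0 higher genes (against 2.2%). The rule favours a low level in eTK control: with the added 0.5 CPM, a gene with at most 0.116 CPM there cannot pass below the threshold of -0.3 even if it falls to 0. In batch 1, 7 of the 59 genes had so little transcript in eTK control, and all 7 are among the 24: AT4G12495, AT1G26390, AT4G01740, CYP82C2, AT1G26410, AT1G14550 and AT4G28420. Of the other 52 genes, 17 (32.7%) were lower in eTK, 13 of them by 2-fold or more. These 52 are not free of the rule's preference, as the added 0.5 CPM also shrinks heat changes at levels above 0.116 CPM. Of the 24 lower genes, 12 had under 1 CPM in eTK control of batch 1. At any level, a high Col-0 control and a low eTK control of batch 1 help a gene to meet the rule. With 10 or more counts required in every control library of batch 2, 50 of the 59 genes were tested, 16 were lower and 12 differed by 2-fold or more. The median difference was -0.25 on the log2 scale (interquartile range -2.75 to 0.13), and 0.02 over all genes. The genes not called, lower and higher in eTK control are described in turn, with the genes highest in eTK heat, of which ATL5 was called lower in control, between the first and the next.

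**Figure D2:**
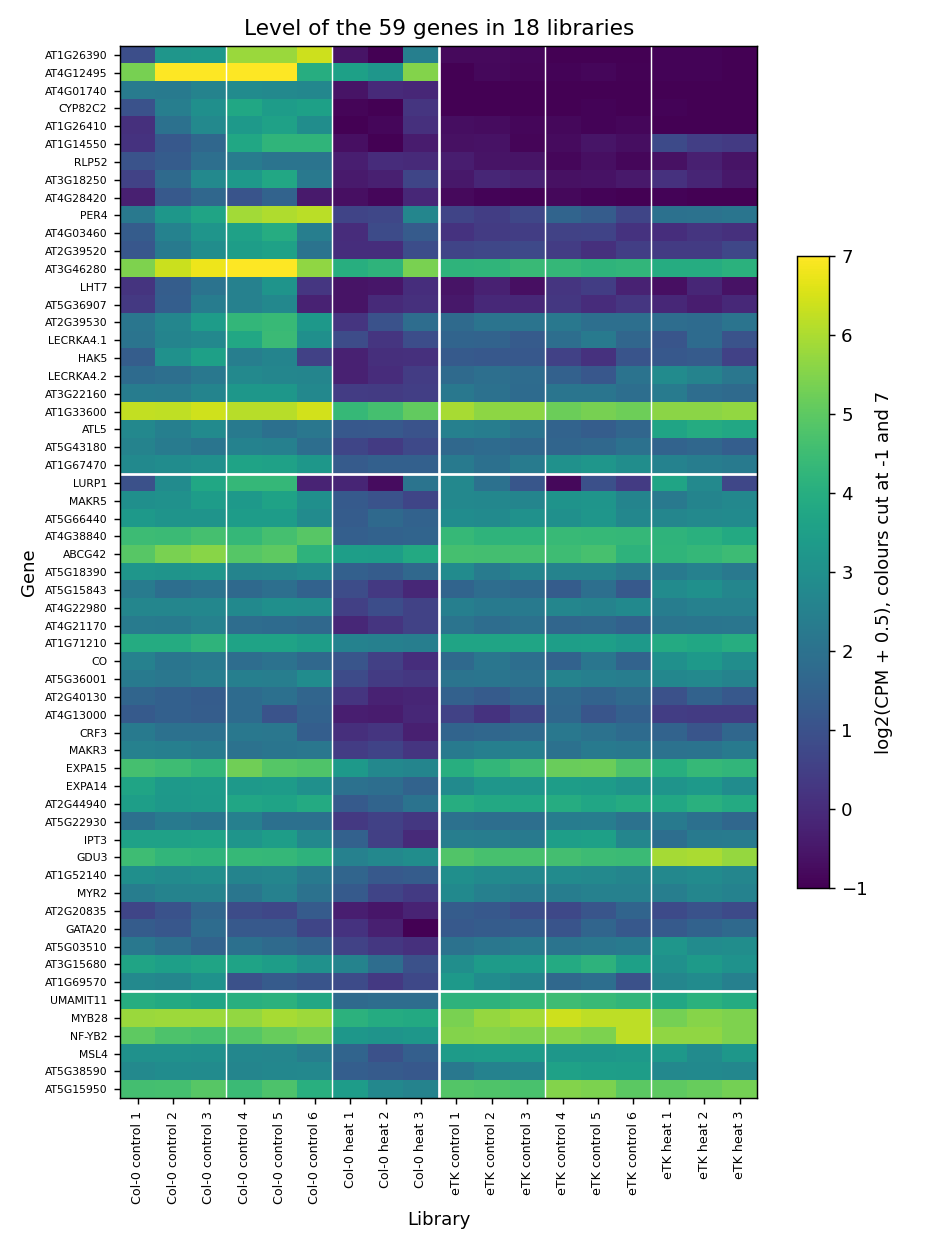
Levels of the 59 genes (rows) in the 18 libraries (columns) as log2(CPM + 0.5), with colours cut at -1 and 7. Rows are split by white lines into 24 genes lower in eTK control of batch 2, 29 not called and 6 higher, and the top rows are dark in every eTK library while the lower rows are darkest in the 3 Col-0 heat columns.

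The auxin, cytokinin and cell wall genes were all among the 29 genes not called in control. AT4G38840, a small auxin-up RNA gene (SAUR14) of a family that promotes cell expansion, had the lowest Col-0 heat change of all 59. It had 21.9, 21.3 and 24.6 CPM in Col-0 control of batch 1, 19.7, 24.5 and 29.6 in batch 2, and 2.19, 2.36 and 2.48 in Col-0 heat. In eTK it had 20.0, 18.1 and 17.9 CPM in control of batch 1, 20.4, 20.1 and 19.4 in batch 2, and 18.0, 16.4 and 14.2 in heat. The 3 Col-0 heat libraries stood apart from all 15 others, and the lines differed by -0.30 ± 0.12 (log2, SE) in control of batch 2 (adjusted p = 0.0917 in edgeR's quasi-likelihood test). Without Col-0 control 4 this difference was -0.43 and passed (adjusted p = 0.012, edgeR). The heat change was -3.02 in Col-0 and -0.20 in eTK.

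The expansins EXPA15 and EXPA14, which loosen cell walls, followed the same order. EXPA15 had 24.5, 22.3 and 19.4 CPM in Col-0 control of batch 1 and 9.63, 6.20 and 5.75 in Col-0 heat, and 15.8, 19.1 and 23.2 against 15.6, 19.9 and 18.9 in eTK. In eTK control of batch 2 it had 35.6, 36.5 and 26.6 CPM. The eTK heat libraries overlapped their batch 1 controls and lay below those of batch 2, and the Col-0 heat libraries lay below every other library for this gene. EXPA14, with less transcript, went from 9.53–12.3 to 2.43–3.49 CPM in Col-0 and from 6.63–8.77 to 6.92–9.53 in eTK. In control of batch 2 the lines differed by 0.06 ± 0.19 for EXPA15 and 0.09 ± 0.16 for EXPA14 (log2, SE), and neither passed the test (adjusted p = 0.863 and 0.769, edgeR).

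For the cytokinin genes the batch 1 controls of the lines were not equal. IPT3, an isopentenyltransferase that makes cytokinin precursors, had 11.6, 11.4 and 12.0 CPM in Col-0 control of batch 1 and 2.31, 0.922 and 0.475 in Col-0 heat. In eTK it had 4.83, 4.73 and 4.32 CPM in control of batch 1 and 3.20, 4.30 and 4.47 in heat. In batch 2 it had 8.58, 10.5 and 6.10 CPM in Col-0 and 10.8, 11.1 and 5.92 in eTK. So the eTK controls of batch 1 lay below those of Col-0 while the batch 2 controls overlapped (0.14 ± 0.32, adjusted p = 0.810, edgeR). CRF3, a cytokinin response factor of the AP2/ERF family, had 3.43–4.27 CPM in Col-0 control of batch 1 and 0.317–0.666 in Col-0 heat, and 2.50–2.88 and 1.68–2.69 in eTK. MAKR5, a membrane-associated kinase regulator known from root phloem signalling, had 7.41–10.2 and 1.11–1.89 CPM in Col-0 and 5.70–6.19 and 4.18–6.20 in eTK. Both overlapped between eTK heat and eTK control of batch 1, and CRF3 and IPT3 in eTK heat lay below eTK control of batch 2.

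A small group had higher levels in the heated mutant than in its own controls. The heat change in eTK was 1 or more in 6 of 59 genes, between 0.3 and 1 in 5 and between -0.3 and 0.3 in 48. GDU3, a glutamine dumper protein that promotes amino acid export from cells, had 22.5, 18.7 and 17.8 CPM in Col-0 control of batch 1, 20.2, 19.6 and 17.7 in batch 2, and 5.21, 6.09 and 7.02 in Col-0 heat. In eTK it had 28.1, 24.9 and 25.1 CPM in control of batch 1, 23.8, 22.0 and 21.5 in batch 2, and 60.8, 63.3 and 52.4 in heat. GDU3 thus went in opposite directions in the 2 lines with no overlap, and its heat levels differed by 3.17 on the log2(CPM + 0.5) scale, the largest among the genes higher in eTK heat.

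CO (CONSTANS), the B-box zinc finger protein that activates flowering in long days, showed the same pattern at a lower level. It had 5.21, 3.81 and 4.20 CPM in Col-0 control of batch 1 and 1.64, 0.922 and 0.528 in Col-0 heat. It had 2.80, 3.87 and 3.23 CPM in eTK control of batch 1 and 7.64, 9.26 and 7.15 in eTK heat. The gene AT5G15843 lies on the opposite strand and overlaps CO by 1967 bases, and its heat changes of -1.68 and 1.13 were close to those of CO (-1.68 and 1.17). Whether the counting used strand was not given in the sources used here, so the reads of these overlapping genes cannot be told apart. NF-YB2, a subunit of the CCAAT-binding nuclear factor Y that acts with CO in flowering, is also among the 59 and is described with the genes higher in eTK.

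ATL5, a RING finger protein of a ubiquitin ligase family, had 6.19, 4.93 and 6.60 CPM in Col-0 control of batch 1 and 1.81, 1.84 and 1.58 in Col-0 heat, and 5.08, 4.73 and 3.67 against 12.3, 14.6 and 13.4 in eTK. All eTK heat libraries stood above every other library. Its batch 2 control levels were 4.46, 3.40 and 4.02 CPM in Col-0 and 2.39, 2.04 and 2.63 in eTK, and it was called lower in eTK (-0.75 ± 0.16, adjusted p = 0.00228, edgeR). ATL5 overlaps AT3G62695 on the opposite strand by 201 bases, and that gene had heat changes of -1.30 and 1.27. AT5G03510, a C2H2 zinc finger gene, had 2.40–4.08 CPM in Col-0 control of batch 1, 0.581–1.01 in Col-0 heat, 3.53–4.55 in eTK control of batch 1 and 6.77–8.63 in eTK heat. Its 3 eTK heat values lay above those of all other libraries.

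**Figure D3:**
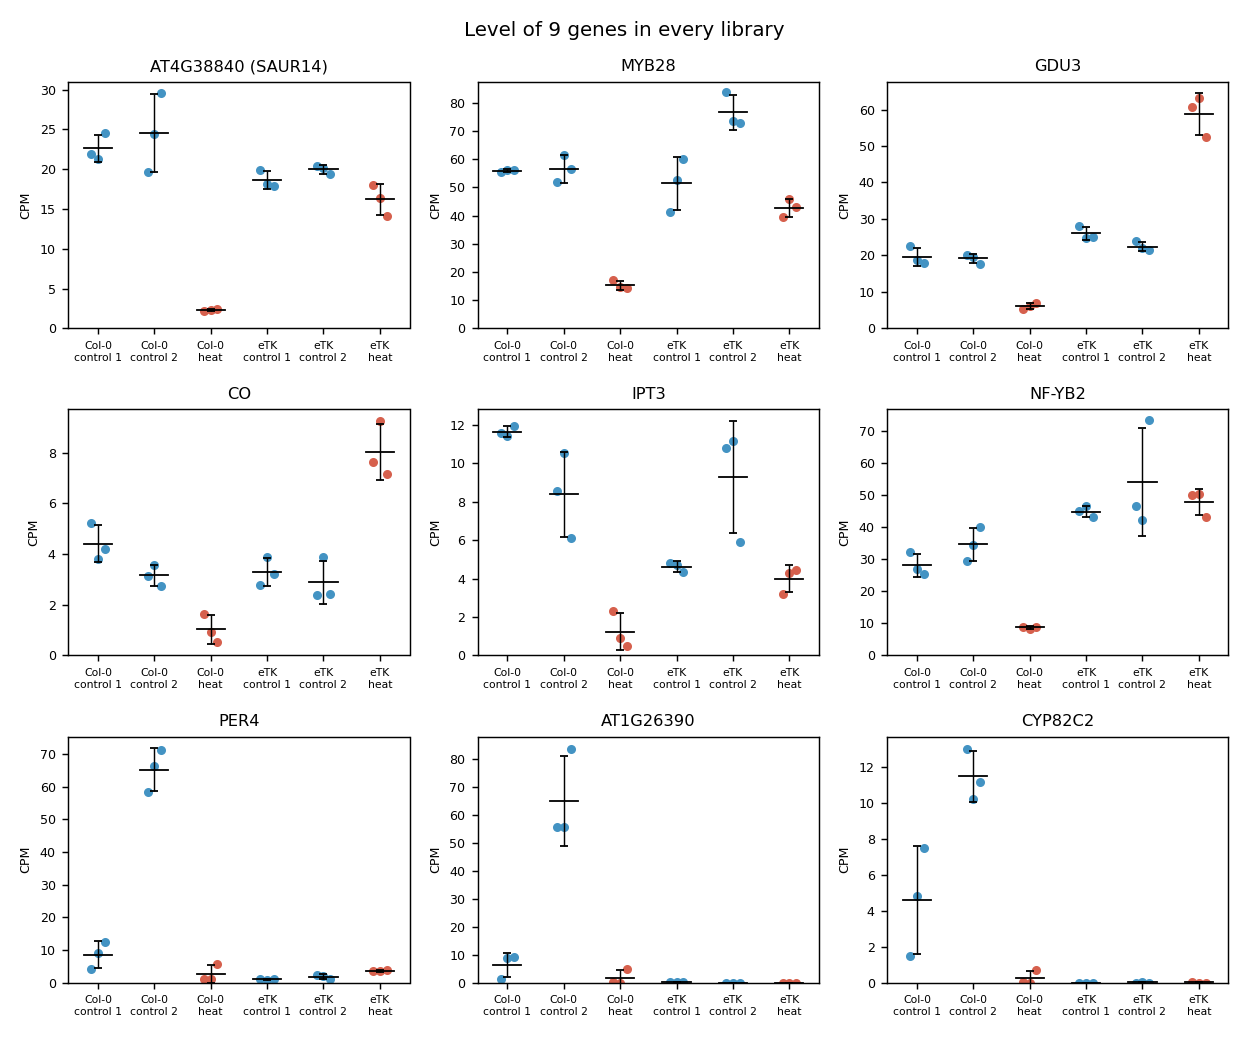
CPM of 9 of the 59 genes in every library (y axes start at 0), by line, treatment and batch of control (1 or 2), with blue points for control, red points for heat, a line at the mean and bars of 1 SD (n = 3). GDU3 and CO are highest in eTK heat, AT4G38840 and NF-YB2 are low in Col-0 heat alone, and PER4, AT1G26390 and CYP82C2 are high in Col-0 control of batch 2 and low in every eTK library.

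Among the 24 genes lower in eTK control, several had almost no transcript in eTK. CYP82C2, a cytochrome P450 of indole-derived defence compounds, had 1.5, 4.83 and 7.46 CPM in Col-0 control of batch 1, 13.0, 10.2 and 11.2 in batch 2, and 0.0420, 0 and 0.686 in Col-0 heat. Of the 9 eTK libraries, 7 had no count, and the highest had 0.0330 CPM. In control of batch 2 there were 2 counts in eTK, both in eTK control 5, and 2832 in Col-0, a ratio of 1410 (95% interval 391 to 11700, counting error only). The interval takes counts as independent. If both mates of a pair were counted, it is too narrow.

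The berberine bridge enzyme-like genes AT1G26390 and AT1G26410, which lie near each other on chromosome 1, had the same order of levels. AT1G26390 had 1.40, 8.69 and 9.14 CPM in Col-0 control of batch 1, 55.7, 55.7 and 83.8 in batch 2, and 0.168, 0 and 4.96 in Col-0 heat. In eTK it reached 0.0815 CPM at most, and control of batch 2 held 0 counts against 15881 in Col-0, at least 5290-fold higher in Col-0 with a floor of 3 counts over the group (0.0121 CPM). This floor also takes counts as independent, and the fold would be smaller if both mates of a pair were counted. AT1G26410 had 7.02–11.4 CPM in Col-0 control of batch 2 and 0.0269–0.0671 in eTK control (-7.53 ± 1.00, adjusted p = 9.1e-05, edgeR). AT4G01740, a cysteine/histidine-rich C1 domain gene, had 0 counts in all 9 eTK libraries and 5.96–6.83 CPM in Col-0 control of batch 2, at least 526-fold higher with the same floor. Its Col-0 heat libraries had 0.168–0.461 CPM, above the 0 of eTK.

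The peroxidase genes PER4 and AT1G14550 also lie near each other on chromosome 1. PER4 had 4.20, 8.98 and 12.3 CPM in Col-0 control of batch 1, 58.3, 66.3 and 71.1 in batch 2, and 1.05, 1.13 and 5.81 in Col-0 heat. In eTK it had 1.06, 0.864 and 1.13 CPM in control of batch 1, 2.46, 1.99 and 1.099 in batch 2, and 3.46, 3.51 and 3.84 in heat. PER4 was lower in eTK control of batch 2 (-5.14 ± 0.53, adjusted p = 3.99e-06, edgeR), and its eTK heat level, though above every eTK control, stayed under every Col-0 control library. AT1G14550 went from 0.0349–0.157 CPM in eTK control of batch 1 to 0.786–1.22 in eTK heat, and in control of batch 2 it had 13.2–18.5 CPM in Col-0 and 0.0895–0.188 in eTK.

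The lectin receptor kinases LECRKA4.1 and LECRKA4.2, membrane proteins of immune signalling, lie near each other on chromosome 5. LECRKA4.2 had 2.96, 3.27 and 4.08 CPM in Col-0 control of batch 1, 6.27, 5.89 and 5.75 in batch 2, and 0.336, 0.512 and 0.845 in Col-0 heat. In eTK it had 2.91, 3.26 and 3.02 CPM in control of batch 1, 2.33, 1.76 and 3.62 in batch 2, and 6.80, 5.52 and 3.96 in heat. The batch 1 controls of the lines overlapped and the batch 2 controls did not (-1.21 ± 0.26, adjusted p = 0.00208, edgeR), and eTK heat lay above every eTK control. LECRKA4.1 was lower in eTK control of batch 2 as well (-2.08 ± 0.34, adjusted p = 0.000288, edgeR) and stayed at 1.57–2.94 CPM in eTK heat against 1.95–2.47 in batch 1 control. These kinases are similar in sequence, and the authors' handling of reads that match several places was not given in the sources used here.

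Other strongly expressed genes of this class were AT4G12495, AT3G46280 and AT1G33600. AT4G12495, an uncharacterized gene of 282 bases, spread from 15.4 to 384 CPM over the 6 Col-0 controls (median 199.8), had 11.3, 8.73 and 45.2 in Col-0 heat and at most 0.0589 in any eTK library. It lies wholly within AT4G12490 on the opposite strand, which had heat changes of -3.18 in Col-0 and -0.43 in eTK, so its reads are uncertain. AT3G46280, a kinase-like gene, had 179.6, 202 and 50.4 CPM in Col-0 control of batch 2 and 19.4, 18.0 and 18.9 in eTK control, near its Col-0 heat values of 15.6, 17.9 and 41.1. AT1G33600, a leucine-rich repeat gene, had 69.8, 69.6 and 88.1 CPM in Col-0 control of batch 2, 36.5, 40.5 and 37.1 in eTK control, 19.9–33.2 in Col-0 heat and 48.4–51.9 in eTK heat. For AT1G33600 the eTK libraries all lay between Col-0 heat and Col-0 control, unlike the other genes of this paragraph, whose eTK levels overlapped the Col-0 heat range or lay below it.

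HAK5, the high-affinity potassium transporter of roots, had 2.08, 7.75 and 11.3 CPM in Col-0 control of batch 1 and 0.336–0.581 in Col-0 heat, and 1.80–1.93 and 0.967–1.93 in eTK. In control of batch 2 it had 4.91, 5.62 and 0.972 CPM in Col-0 and 0.973, 0.591 and 1.60 in eTK (-1.86 ± 0.59, adjusted p = 0.0357, edgeR), and the groups overlapped through Col-0 control 6. The call of HAK5 was lost without any 1 of Col-0 control 4 or 5 and eTK control 4 or 5 (-1.79 to -1.47, adjusted p from 0.103 to 0.134, edgeR). Col-0 control 6 was also the low one for LURP1, a gene needed for defence against downy mildew. LURP1 had 19.7, 19.8 and 0.378 CPM in Col-0 control of batch 2 and 0.0671, 1.42 and 0.812 in eTK control, and it did not pass the test (-4.14 ± 1.46, adjusted p = 0.0632, edgeR). Without Col-0 control 6 LURP1 passed, with -4.71 (adjusted p = 0.0188, edgeR).

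The eTK controls of batch 2 were also set beside the heated Col-0 libraries. They lay above all Col-0 heat libraries in 43 of 59 genes (33.6% of all genes tested), below all of them in 4 (31.2%) and overlapped them in 12. Of the 24 genes lower in eTK control, 9 were above, 11 overlapped and 4 were below. As only 33.6% of all genes tested were above, most genes also overlapped or lay below, and nothing is read from this split. In heat, all eTK libraries lay above all Col-0 libraries in 43 of 59 genes (26.3% of all) and below them in 3 (24.8%). The 35 genes that were not lower in eTK control held 34 of the 43, and the 24 genes lower in eTK control held the other 9. The heat libraries chose the genes, so these counts carry no test.

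The 6 genes higher in eTK control of batch 2 were MYB28, NF-YB2, AT5G15950, UMAMIT11, MSL4 and AT5G38590, each by less than 2-fold. MYB28, the regulator of methionine-derived glucosinolates, had 51.8, 61.7 and 56.7 CPM in Col-0 control of batch 2 and 83.8, 73.5 and 72.8 in eTK (0.44 ± 0.11, adjusted p = 0.0101, edgeR). The call was lost without Col-0 control 4 (0.38, adjusted p = 0.0556) and without eTK control 4 (0.38, adjusted p = 0.054). In batch 1 it had 55.3, 56.3 and 56.1 CPM in Col-0 control, 17.2, 14.7 and 14.1 in Col-0 heat, 41.4, 52.7 and 60.2 in eTK control and 39.4, 45.8 and 43.1 in eTK heat. The eTK heat libraries lay between the heated and the unheated Col-0 libraries, and the batch 1 controls of the lines overlapped.

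NF-YB2 had 32.1, 27.0 and 25.3 CPM in Col-0 control of batch 1, 29.3, 34.5 and 39.8 in batch 2, and 9.00, 8.32 and 8.92 in Col-0 heat. In eTK it had 44.8, 46.4 and 43.0 CPM in control of batch 1, 46.4, 42.1 and 73.3 in batch 2, and 50.0, 50.2 and 43.2 in heat. Every eTK library exceeded every Col-0 library, at either temperature, and the batch 2 controls differed by 0.64 ± 0.16 (adjusted p = 0.00739, edgeR). In a fit of the batch 2 controls alone the call was lost (0.64, adjusted p = 0.0706), and without eTK control 6, the highest library, the difference was 0.36 (adjusted p = 0.0421). AT5G15950, an adenosylmethionine decarboxylase of polyamine synthesis, had 15.9–27.0 CPM in Col-0 control of batch 2, 31.0–44.8 in eTK control, 5.46–10.2 in Col-0 heat and 31.9–39.9 in eTK heat (0.87 ± 0.21 for the controls, adjusted p = 0.00542, edgeR). MSL4, a mechanosensitive ion channel gene, differed by 0.71 ± 0.14 (adjusted p = 0.00166, edgeR) and had eTK heat levels of 6.79–9.19 CPM against 1.49–2.48 in Col-0 heat. AT5G38590, an F-box gene, had 10.4–11.3 CPM in eTK control and 5.78–6.13 in Col-0 control of batch 2, but 4.15–5.54 and 6.34–6.94 in batch 1, so its difference turned direction between batches. UMAMIT11, of a family of amino acid transporters, differed by 0.40 ± 0.11 (adjusted p = 0.014, edgeR), and lost the call without Col-0 control 6 (0.31, adjusted p = 0.0621) or eTK control 4 (0.34, adjusted p = 0.0674).

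**Figure D4:**
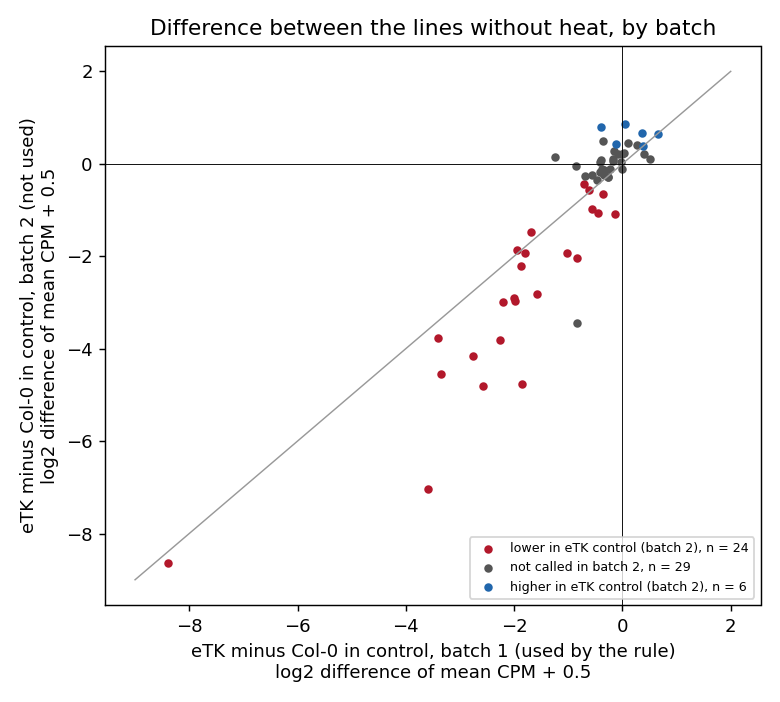
Difference between eTK and Col-0 without heat in batch 1 (x axis, used by the rule) and batch 2 (y axis, not used), each as log2 of mean CPM + 0.5, for the 59 genes, with the grey diagonal marking equal differences. Most genes lower in eTK control of batch 2 lie below the diagonal, reaching -8.64, and of the genes not called LURP1 stands apart in batch 2 and IPT3, at -1.24, in batch 1.

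The genes lower in heat in both lines were the nearest comparison. These are 329 nuclear genes with a heat change of -1.5 or less in each line, and a further 462 lay between the 2 eTK thresholds, out of 850 lower in Col-0 heat. In control of batch 2, 39 of the 329 (11.9%) were lower in eTK and 27 (8.21%) higher, both close to the shares of all genes, with 17 and 6 of them by 2-fold or more. Their median difference between the lines was 0.01, against -0.25 for the 59 genes. With the added 0.5 CPM, a gene nearly without transcript in eTK control cannot reach -1.5 in eTK. The 329 thus leave such genes out, whereas 13 of the 59 had under 1 CPM in eTK control of batch 1. Part of this contrast therefore follows from how the sets were chosen. Median levels in Col-0 control of batch 1 were 5.92 CPM for the 59 genes and 14.4 CPM for the 329. Summed over the 59 genes, Col-0 libraries had 611.5–1072 CPM in control of batch 1, 762.6–1307 in batch 2 and 159.9–249.5 in heat, whereas eTK libraries had 472.2–479.1, 508.5–548.4 and 506.5–539.9. AT4G12495 alone makes up a large and variable part of the Col-0 sums.

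Levels in Col-0 control also differed between the batches. In 10 of 59 genes (16.9%) the batch means of Col-0 control were 2-fold or more apart, against 4.63% of nuclear genes, and in eTK control the shares were 5.08% and 3.65%. Of these 10, 9 were higher in batch 2 and belong to the 24 genes lower in eTK. The last, AT1G69570, a Dof zinc finger gene, had 5.94–7.94 CPM in Col-0 control of batch 1 and 1.49–1.96 in batch 2. For the 9, the same Col-0 controls of batch 2 enter both measures, so part of this overlap is built in. The heat libraries are all labelled batch 1. The light-harvesting gene LHCB1.1, which is not among the 59, had means of 1150 CPM in Col-0 control of batch 1, 91.7 in batch 2 and 85.5 in Col-0 heat, and of 2871, 183 and 241 in eTK. For this gene the heat means of both lines lay closer to batch 2 than to batch 1. For such a gene a change against the batch 1 controls and a difference between batches cannot be told apart. Not every marker did so: RBCS1A in eTK had means of 9022 CPM in control of batch 1, 12497 in batch 2 and 7828 in heat. When the batch 2 controls took the place of those of batch 1, 42 of the 59 genes met the Col-0 threshold, 43 met the eTK threshold and 29 met both, while 203 genes met the rule in all. Membership thus depends on the control libraries used.

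The 59 genes were also looked up in lists of gene families. Of 37 lists of pathways and families, 10 held 14 of the genes, and 45 genes were in none. The share of all genes that the lists cover was not computed, so 14 of 59 is not read as few or many. The 59 are 0.262% of the nuclear genes tested, and with at most 2 genes in a list no share is read from a single list. The members were 2 of 48 cytokinin genes (IPT3 and CRF3), 2 of 238 cell wall genes (EXPA15 and EXPA14), 2 of 73 zinc finger and B-box factors (CO and GATA20), 2 of 322 receptor-like kinases (LECRKA4.1 and LECRKA4.2), 2 of 267 pentatricopeptide repeat genes (AT1G71210 and AT5G18390), and 1 each of 133 auxin genes (AT4G38840), 103 MYB factors and 42 glucosinolate genes (MYB28 in both), 204 cytochromes P450 (CYP82C2) and 226 F-box genes (AT5G38590). The heat shock factor and chaperone list had none of its 61 genes among them. In control of batch 2, the WRKY list held 36 of 66 genes lower in eTK and 1 higher, with a median of -0.77. Receptor-like kinases held 115 lower and 14 higher of 322, nucleotide-binding disease resistance genes 55 and 9 of 147, and ethylene and jasmonate genes 23 and 4 of 79. These numbers describe whole lists: the WRKY, resistance and ethylene and jasmonate lists held 0 of the 59 genes. Lists of other kinds were shifted too. Heat shock factors and chaperones held 26 lower and 4 higher of 61, and flavonoid genes 11 and 4 of 35. The photosystem, antenna and Rubisco list held 1 lower and 31 higher of 45. The cytokinin list held 6 lower and 2 higher of 48, the auxin list 11 and 11 of 133 and the cell wall list 27 and 12 of 238, against shares of 12.2% lower and 8.6% higher over all genes.

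In gene structure the 59 genes had few exons. A single exon was annotated for 27 of them (45.8%), against 38.3% of the genes lower in both lines and 17.4% of all nuclear genes tested. The median exon number was 2, against 2 and 4, and the median spliced length was 1581 bases, against 1978 and 1672. GC content of the transcripts had a median of 40.7%, against 41.5% and 41.3%. An annotated gene on the opposite strand overlapped 15 of the 59 (25.4%), against 28.1% of all. Chromosome 5 carried 20 of the genes (33.9%, against 23.3% of all nuclear genes tested), and 5 pairs had their starts within 20000 bases of each other: PER4 and AT1G14550, AT1G26390 and AT1G26410, AT2G39520 and AT2G39530, LECRKA4.1 and LECRKA4.2, and the overlapping CO and AT5G15843. All 8 genes of the first 4 pairs were lower in eTK control of batch 2, beside 40.7% of the 59 and 12.2% of all genes. CO and AT5G15843 were not called. Neighbouring genes need not be separate observations, and the share over all neighbouring pairs was not computed.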

How the data were processed

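Whole Arabidopsis seedlings were profiled by RNA sequencing in 18 of the 54 samples of the series. The authors deposited raw counts of reads per gene for 27655 genes, and STAR 2.7.9a, fastp 0.24.0, Subread 2.0.6 and featureCounts are listed in the submitters' processing notes. Build, annotation, strand setting and treatment of multiply mapped reads are not given in the sources used here. From 75.35% to 83.28% of non-zero counts per library were even, so both mates of a pair may have been counted, and halved counts were tried as an alternative. The 36 samples of Marchantia polymorpha were not analysed here.

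Counts were filtered with filterByExpr over the 4 groups (22696 genes kept), scaled by TMM factors over all 18 libraries and expressed as CPM. TMM factors averaged 0.655 in Col-0 heat, 1.02 in eTK heat and between 1.08 and 1.14 in the control groups. The tested comparison, eTK against Col-0 in control of batch 2, was fitted with edgeR 4.0.16 in R 4.3.3 (robust quasi-likelihood) with 6 groups of line, treatment and batch over all 18 libraries, and p-values were adjusted by Benjamini-Hochberg over all genes. SEs were derived from each log2 fold change and its F statistic (size over root F), and fail for genes nearly without counts in a group. These are given as counts with exact 95% intervals or a floor of 3 counts, for counting error only. Both take counts as independent, so counted mate pairs would make the intervals too narrow and the least folds too high. Alternatives were other scalings, filters and pseudocounts, DESeq2 1.42.0, batch 2 alone, halved counts, a replicate block and leaving out each replicate.

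All 36 pairs of replicates differed beyond sampling noise (chi-square per degree of freedom of 7.13 or more). The labels do not state separate plants or cultures for the replicates, so p-values describe only how far these samples spread, possibly for technical reasons. Gene names, positions and sequences come from the RefSeq annotation of TAIR10.1 by locus identifier, and all 59 genes matched. The genes and the 37 lists were chosen with earlier results of these data known. Genes were named by a rule: the 10 lowest heat changes in Col-0, the 10 highest in eTK, the 10 highest Col-0 control levels, the 5 lowest and 5 highest differences called in control of batch 2, up to 3 genes per list and the 2 nearest each threshold. LECRKA4.1, LURP1 and others fall under it, whereas UMAMIT11, AT4G28420, AT2G39520, AT2G39530, AT3G62695 and LHCB1.1 as a batch marker were named after their values were seen.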

Additional observations from a re-analysis of the deposited data

Results flagged for a closer look

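Within the 6 control libraries of a line, 5 of 117 gene and line combinations had a library far from the other 5, and chance alone gives such a gap in about 1 in 20. NF-YB2 had 73.3 CPM in eTK control 6 against 42.1 to 46.4 in the others. AT5G36001, a RING finger gene, had 6.86 CPM in Col-0 control 6 (4.00 to 4.96 in the others), and ABCG42, an ABC transporter gene, had 17.4 CPM in eTK control 6 (22.3 to 25.1). MYR2, a homeodomain-like gene, had 6.52 CPM in eTK control 1 (4.55 to 5.28). CYP82C2 had 0.0269 CPM in eTK control 5, from 2 counts, and 0 in the others.

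In 12 genes the heat libraries lay entirely below the batch 1 controls in Col-0 and entirely above them in eTK. The rule favours such genes, and the difference was not tested. Over all genes tested, 33.2% lay below in Col-0 and 32.8% above in eTK. The share that did both was not computed, so 12 is not read as few or many. Their heat changes in eTK on the log2 scale were 1.48 for ATL5, 1.26 for AT1G14550, 1.17 for CO, 1.16 for GDU3, 1.13 for AT5G15843, 0.82 for AT5G03510, 0.73 for LECRKA4.2, 0.62 for AT5G36001, 0.38 for AT5G15950, 0.29 for AT5G38590, 0.21 for AT1G71210 and 0.14 for AT4G21170.

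AT5G38590 differed between the lines in opposite directions in the control libraries of the 2 batches with no overlap in either. It was higher in eTK by 0.85 (log2) in batch 2 and lower in batch 1, and the difference between batches was not tested.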

How the results depend on the processing

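The number of genes that met the rule depends on its settings. It was 232 with library size alone (50 of the 59 shared), 152 with a pseudocount of 0.1 (52 shared), 34 with a pseudocount of 1 (33 shared) and 203 with the batch 2 controls (29 shared), beside 55 with DESeq2 size factors and 60 without a filter. Leaving out 1 replicate gave 50 to 86 genes, the highest without Col-0 heat replicate 3 (52 shared). With library size alone the median heat change of all nuclear genes moved to -0.58 in Col-0 and -0.08 in eTK.

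The 30 genes called in control of batch 2 were 24 to 32 when 1 replicate was left out, 24 with batch 2 alone, 30 with DESeq2 (29 shared) and 27 with the replicate block. Numbers 4, 5 and 6 correlated at 0.03, 0.14 and 0.23 between the lines. The best correlations with another number were 0.06, 0.11 and -0.11. Whether the numbers pair the samples is therefore not clear, and the labels do not say so. The 20 genes that differed by 2-fold or more were 18 to 21 when 1 replicate was left out, 18 with the replicate block and 12 with at least 10 counts required in every library, a filter that removes genes near 0 in eTK and left 50 of the 59 tested. Over single genes and settings, whether a gene was called or not stayed the same in 778 cases. In 31 a call was lost, in 7 it was gained, and 0 called differences turned direction. Estimates of some genes that were not called did change sign, such as EXPA15 (-0.03 to 0.23) and CRF3 (-0.19 to 0.20). The lost calls were those of HAK5 and AT5G36907 (7 settings each), AT5G43180 (6), AT1G67470 (5), UMAMIT11 (3), MYB28 (2) and NF-YB2 (1). LURP1 passed with DESeq2, with halved counts and without Col-0 control replicate 6. What depth limits is seen for the genes near 0 in eTK, whose difference is given as a floor or ratio.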
